A study of Mus musculus with 12 samples.

Results

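Type I interferon response genes were followed in mouse dorsal root ganglion cultures through 9 members: Ifit1, Ifit2, Ifit3, Isg15, Irf7, Oasl2, Rsad2, Usp18 and Bst2. They were chosen by gene symbol, with earlier results of these data known, out of 16617 gene names with counts in both compartments. Of the 9 members, 8 had counts in both compartments and 7 passed the filter on low counts that left 15990 genes tested. Irf7 fell below that filter, and Rsad2, which encodes the antiviral enzyme viperin, was not analysed here.

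Dorsal root ganglia hold the cell bodies of sensory neurons together with satellite glia, Schwann cells and resident macrophages. Each culture came from the ganglia of 1 adult mouse of the C57B6 background and was grown for 3 days on an insert with pores of 1 µm, which neurites cross while cell bodies stay on the upper side. The groups were neurites of GAR+/- cultures (het), neurites of GAR+/+ cultures (WT), soma of het cultures and soma of WT cultures, with 3 libraries each. The series title names nucleolin, an RNA-binding protein, and the labels do not say what the GAR allele lacks, so the level of nucleolin mRNA is no check of the genotype. That mRNA (Ncl) had 332 to 426 CPM (counts scaled to library size) in het neurites against 322 to 463 CPM in WT neurites, and 251 to 290 CPM in het soma against 218 to 239 CPM in WT soma. All groups share the culture method, whose protocol names no interferon. The RNA is bulk, so fewer cells of a type and less RNA per cell cannot be told apart.

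Type I interferons are secreted proteins that bind a receptor of Ifnar1 and Ifnar2 chains. Through the kinases Jak1 and Tyk2 the receptor activates transcription factors, which bind with Irf9 to interferon-stimulated response elements in the promoters of target genes. The targets include RNA-binding antiviral proteins, ubiquitin-like modifiers and factors that raise or damp the response itself, and many are also present at a low basal level without infection.

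The promoters of the members are shown because they carry the element through which the response is known to act. RefSeq (GRCm38.p6) promoters, 250 bases before to 50 bases after the start, were found for 8 of the 9 members, with no entry for Usp18. The core of the response element, GAAA followed by any 2 bases and GAAA on either strand, was present in those of 5 members, Ifit1, Ifit3, Isg15, Bst2 and Rsad2. It was not found in the windows of Ifit2 (2 starts), Oasl2 and Irf7. Of all 32851 promoters of that length, 3.44% held a match. The gamma activated site TTCNNNGAA, which can overlap the first motif, was found for Bst2 and Ifit2, against 8.3% of all promoters. The 160 bases before the start are printed 5′ to 3′ on the strand of the gene. Each match of that core, or of its reverse complement, is in capitals. Windows are given for the 4 tested members that hold the core and for Ifit2, which stood apart in its spread between cultures. Oasl2, also without the core, varied with the members other than Ifit2, as given below.
Ifit1, chr19:34640729-34640888, plus strand: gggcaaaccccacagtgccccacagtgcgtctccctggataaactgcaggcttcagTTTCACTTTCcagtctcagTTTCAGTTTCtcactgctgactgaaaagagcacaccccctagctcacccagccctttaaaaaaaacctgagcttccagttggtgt
Ifit3, chr19:34583369-34583528, plus strand: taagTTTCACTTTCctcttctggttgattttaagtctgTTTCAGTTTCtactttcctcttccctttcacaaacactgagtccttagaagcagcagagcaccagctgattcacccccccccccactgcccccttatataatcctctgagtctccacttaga
Isg15, chr4:156200819-156200978, minus strand: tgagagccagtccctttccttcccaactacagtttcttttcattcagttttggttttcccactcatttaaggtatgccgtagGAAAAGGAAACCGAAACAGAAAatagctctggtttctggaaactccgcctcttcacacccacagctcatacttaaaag
Bst2, chr8:71537473-71537632, minus strand: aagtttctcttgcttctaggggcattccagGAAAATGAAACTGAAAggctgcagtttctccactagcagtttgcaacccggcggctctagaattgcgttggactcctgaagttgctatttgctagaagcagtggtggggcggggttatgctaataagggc
Ifit2, chr19:34550534-34550693, plus strand: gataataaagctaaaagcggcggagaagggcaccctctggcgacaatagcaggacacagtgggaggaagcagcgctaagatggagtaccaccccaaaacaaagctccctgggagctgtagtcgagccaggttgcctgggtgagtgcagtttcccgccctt
In Isg15 the 3 matches overlap and begin at positions -78, -72 and -66 from the start, and in Bst2 the 2 matches begin at -130 and -124. The 2 matches in Ifit1 begin at -104 and -85, and those in Ifit3 at -156 and -122, all on the opposite strand. A match is a description of letters and not a measured binding site.

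Libraries held between 14965973 and 32434916 counts, and a count of 0 allowed up to 3 counts. That was between 0.0931 and 0.202 CPM of the named counts, without the TMM scaling applied to the levels. Markers of sensory neurons were abundant in both compartments, and all 12 listed were tested. Their summed level was 11049 to 14570 CPM in het neurites, 9421 to 12613 CPM in WT neurites, 14415 to 17483 CPM in het soma and 12959 to 14936 CPM in WT soma. Markers of Schwann cells, satellite glia, fibroblasts and proliferating cells were also present in the neurite libraries, so these were not neurites alone.

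Ifit1, Ifit2 and Ifit3 are neighbours on chromosome 19 and encode proteins with tetratricopeptide repeats that bind viral RNA or each other. On GRCm38 (GENCODE M21) they occupy chr19:34640871-34650009, chr19:34550694-34576419 and chr19:34583531-34588731, all on the plus strand. Ifit1 had 25.6, 26.8 and 45.2 CPM in het neurites against 34.1, 16.3 and 54.6 CPM in WT neurites. In soma it had 18.6, 23.4 and 33.5 CPM in het cultures against 24.3, 13.3 and 41 CPM in WT cultures. The third library was the highest in every group and WT culture 2 the lowest in both compartments, and het and WT overlapped.

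Ifit3 had 33.1, 40.1 and 47.3 CPM in het neurites against 31.8, 32.6 and 93.4 CPM in WT neurites. In soma it had 21.3, 26.2 and 33.6 CPM in het cultures against 16.6, 19.6 and 54.4 CPM in WT cultures. The third WT culture stood above the other 5 cultures in both compartments, and the genotypes overlapped. Ifit3b, a near-identical neighbour of Ifit3, is counted as a gene of its own, and how reads shared between such copies were divided is not given in the sources used here, so the split between them is uncertain.

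Ifit2 had 120, 100 and 113 CPM in het neurites against 155, 138 and 137 CPM in WT neurites. In soma it had 90.5, 85.6 and 88.4 CPM in het cultures against 101, 107 and 121 CPM in WT cultures. Each het library was lower than each WT library of the same compartment, and each neurite library of a culture was higher than its soma library.

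Isg15 encodes a ubiquitin-like protein that is joined to other proteins, and Usp18 encodes the protease that removes it and also damps receptor signalling. Isg15 (chr4:156199424-156200818, minus strand) had 6.05, 6.48 and 8.45 CPM in het neurites against 7.7, 4.44 and 17.5 CPM in WT neurites, and 4.04, 4.16 and 5.82 CPM in het soma against 4.77, 3.99 and 11.8 CPM in WT soma. Usp18 (chr6:121245906-121270917, plus strand) had 5.36, 5.41 and 9.24 CPM in het neurites against 4.06, 3.09 and 17.4 CPM in WT neurites, and 4.01, 5.4 and 7.98 CPM in het soma against 2.81, 2.94 and 12.6 CPM in WT soma. Both genes were highest in WT culture 3, and the genotypes overlapped in both compartments.

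Oasl2 encodes a relative of the enzymes that sense double-stranded RNA, and Bst2 encodes tetherin, a membrane protein that holds budding virus particles at the cell surface. Oasl2 (chr5:114896936-114912234, plus strand) had 3.72, 6.33 and 5.9 CPM in het neurites against 5.11, 2.29 and 7.47 CPM in WT neurites, and 3.08, 5.44 and 6.19 CPM in het soma against 3.69, 4.07 and 6.9 CPM in WT soma. Bst2 (chr8:71534255-71537456, minus strand) had 9.98, 13 and 23.4 CPM in het neurites against 13.3, 9.42 and 23.3 CPM in WT neurites, and 10.7, 12.1 and 22.3 CPM in het soma against 9.11, 10.4 and 20 CPM in WT soma. For Bst2 the third culture of both genotypes was about as high, unlike Ifit3 and Usp18, where the third WT culture was higher than the third het culture.

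Irf7 encodes a transcription factor that amplifies the response. The counted Irf7 transcript is annotated as a retained intron, and it had 7 to 13 counts in het neurites against 0 to 14 counts in WT neurites, and 5 to 6 counts in het soma against 2 to 5 counts in WT soma. These counts were too few for a comparison. Of the interferon ligands listed, Ifnb1 had counts in the soma table alone, 5, 2 and 8 in het soma against 9, 5 and 6 in WT soma, and the other 9 were not analysed here.

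Per kilobase of the most counted transcript, the mean level over 12 libraries was 29.6 CPM for Ifit2, 21.5 for Ifit3, 18.6 for Bst2, 11.2 for Ifit1, 9.39 for Isg15, 3.77 for Usp18 and 1.61 for Oasl2. The order of neighbours was the same in 12 of 12 libraries for Bst2 over Ifit1, Isg15 over Usp18 and Usp18 over Oasl2, in 11 for Ifit2 over Ifit3, in 9 for Ifit1 over Isg15 and in 6 for Ifit3 over Bst2, so Ifit3 and Bst2 had no set order.

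**Figure D1:**
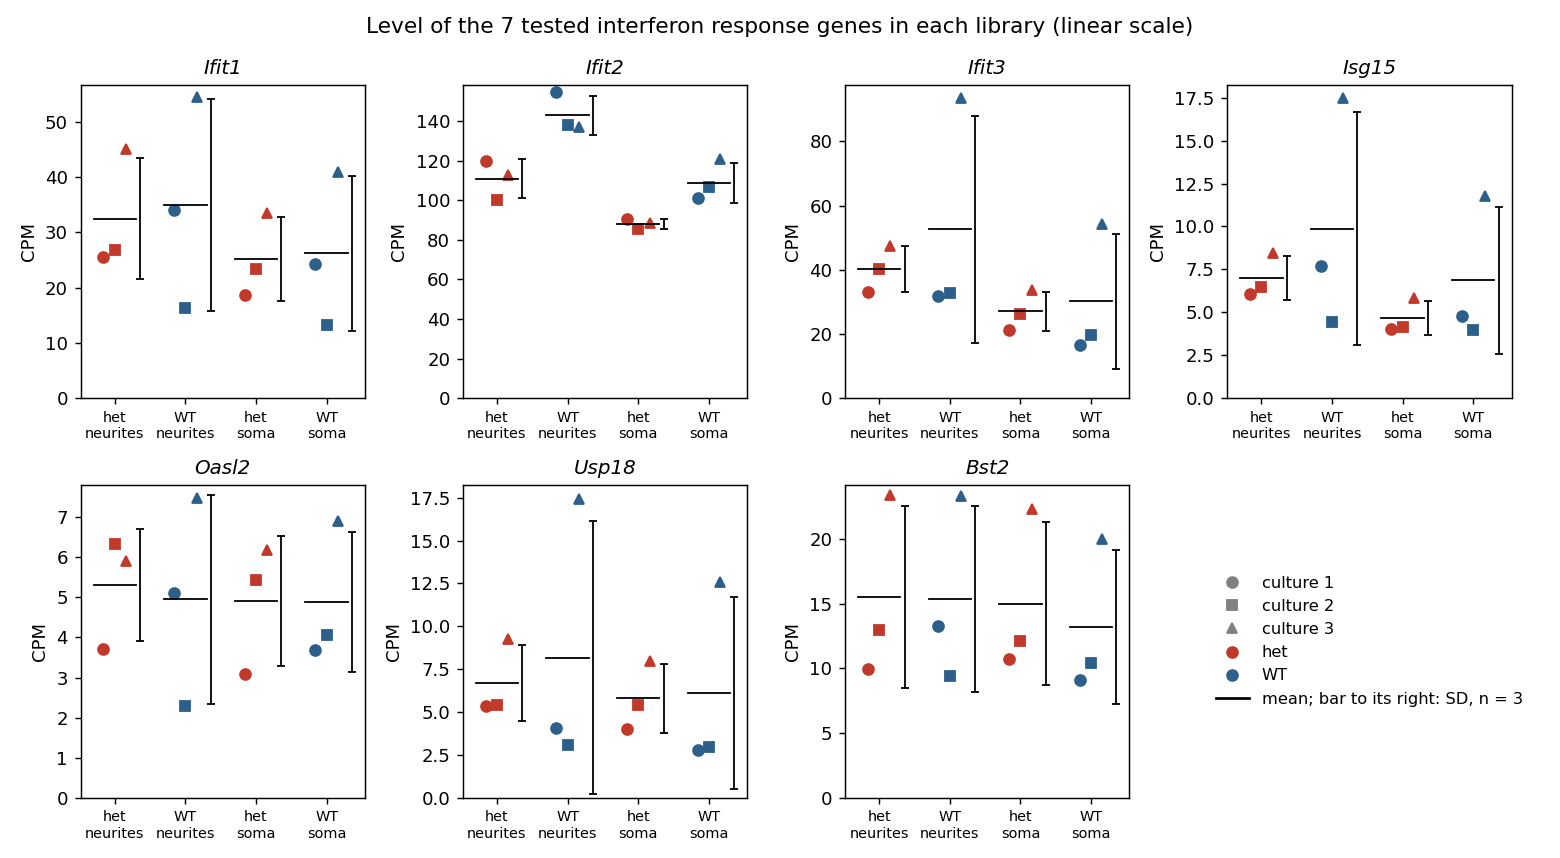
Level of the 7 tested members in CPM on a linear axis, with 1 point per library, a line at the mean of 3 libraries and an error bar of 1 SD beside it. Ifit2 is tightly grouped, with het below WT in both compartments, while the triangles of culture 3 lie at or near the top for the other members.

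Of the 7 tested members, 6 varied together from culture to culture, and Ifit2 did not. The within-group SD of log2 CPM, pooled over the 4 groups, was 0.601 for Oasl2, 0.616 for Bst2, 0.675 for Ifit1, 0.675 for Ifit3, 0.678 for Isg15 and 0.965 for Usp18, against a median of 0.237 over all tested genes. These lay between percentiles 87.4 and 96.3 of the tested genes, while the SD of Ifit2 was 0.106, at percentile 10.1. In het cultures, replicate 3 was the highest of 3 for 5 of the 7 members in neurites and for 6 in soma, and in WT cultures for 6 in neurites and 7 in soma. Over all tested genes, replicate 3 was the highest of 3 for 33.0% in het neurites and 35.4% in het soma, and for 29.1% in WT neurites and 31.1% in WT soma.

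For the members other than Ifit2, the deviation of a culture from its group mean was alike in neurites and soma. Over the 6 cultures, Pearson r between the 2 compartments, given as a description, was 0.986 for Ifit1, 0.993 for Ifit3, 0.966 for Isg15, 0.974 for Usp18, 0.919 for Bst2, 0.696 for Oasl2 and -0.213 for Ifit2. Over the 12 libraries, the median r of a member's deviations with those of the other 6 was between 0.819 and 0.902 for the members other than Ifit2, and 0.232 for Ifit2. The libraries of a culture share their animal, so these points are not independent. WT culture 3 lay furthest from its group mean in both compartments, at 0.829 in neurites and 0.802 in soma for the mean log2 deviation of the members. The compartments were paired by number, which correlations over genes of at least 10 CPM, given below, go against for het numbers 1 and 3.

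The genes most like the members were ranked by r with the mean of the members' deviations, over 12 libraries and 13435 genes of at least 1 CPM. Among listed genes they included Rtp4 (0.986), Ifit3b (0.951), Xaf1 (0.948), Ifitm3 (0.939) and Parp12 (0.935). Outside the lists they were Selp (0.949), Hist1h2bf (0.939), Hist1h2ac (0.933), Lmcd1 (0.926), Hist1h2bl (0.924) and H2-Q6 (0.919). Rtp4, a target of the same pathway, had 8.87, 9.78 and 13.7 CPM in het neurites against 7.63, 5.58 and 22.4 CPM in WT neurites, and so was highest in WT culture 3. Selp, the adhesion receptor P-selectin of endothelium and platelets, had 1.43, 1.23 and 2.1 CPM in het neurites against 2.03, 1.21 and 7.28 CPM in WT neurites. Of the 46 tested genes in a wider list of interferon targets, replicate 3 was the highest of its group for 26 in het neurites, 35 in WT neurites, 28 in het soma and 29 in WT soma. Over all tested genes the shares were the 33.0%, 29.1%, 35.4% and 31.1% given above for these groups.

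**Figure D2:**
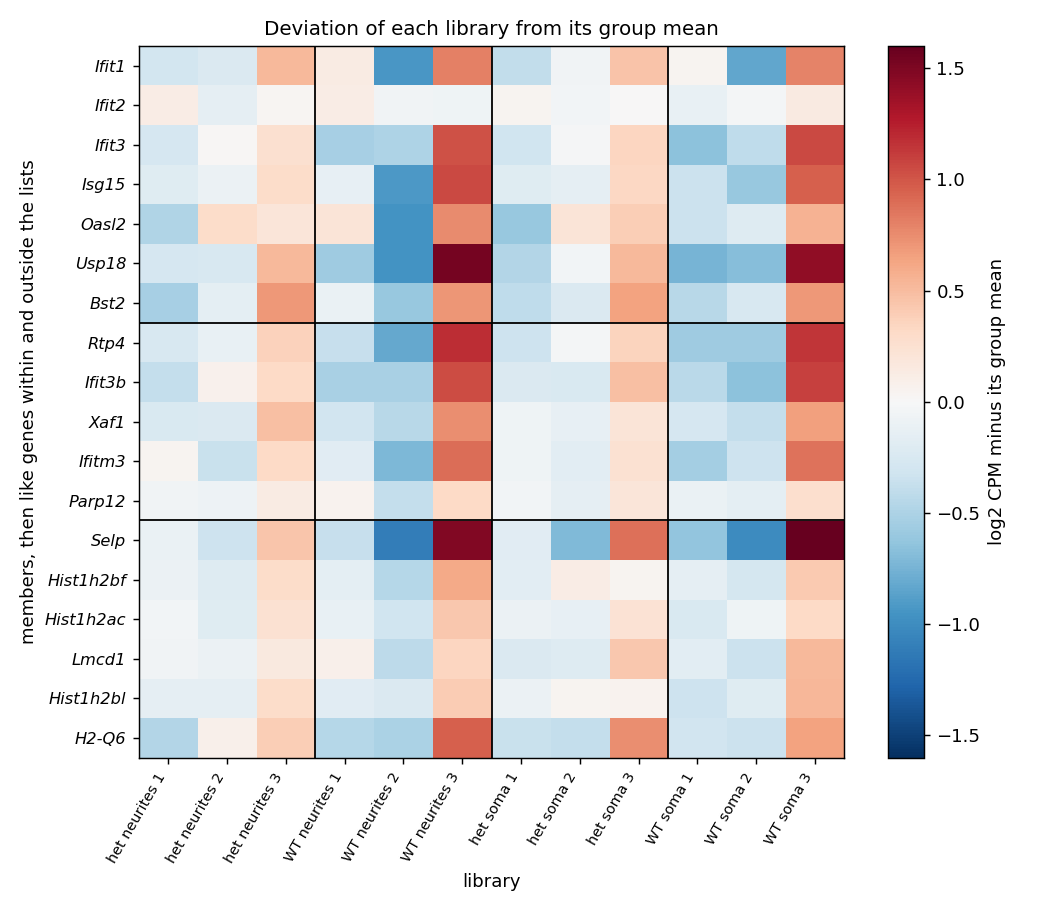
Deviation of log2 CPM of each library from the mean of its group, by colour, for the 7 tested members, then 5 like genes within the lists and 6 outside them. The columns of WT culture 3 are the reddest in neurites and soma, those of het culture 3 are paler red, and the row of Ifit2 is close to white.

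Macrophage markers did not follow the same order. The summed level of the 10 markers with counts was 131, 178 and 331 CPM in het neurites against 99.1, 206 and 185 CPM in WT neurites, and 207, 212 and 434 CPM in het soma against 160, 253 and 255 CPM in WT soma. It was highest in het culture 3 in both compartments. Of the 7 members, 5 were highest in WT culture 3 in neurites and 6 in soma, and Bst2 was highest in het culture 3 in both. Endothelial markers, 6 with counts, summed to 120, 104 and 69.5 CPM in het neurites against 107, 68.2 and 158 CPM in WT neurites, and 109, 103 and 140 CPM in het soma against 80.4, 85.4 and 155 CPM in WT soma, and were highest in WT culture 3 in both compartments. Schwann cell markers were also highest in WT culture 3 in both compartments, at 721 CPM in neurites and 536 CPM in soma. Markers of proliferating cells were highest there in soma (633 CPM), and in neurites had 956 CPM against 972 CPM in WT culture 1. In both compartments the sum of satellite glia markers was highest in WT culture 2, that of fibroblast markers in WT culture 1 and that of sensory neuron markers in het culture 2. Such sums lean on the most abundant markers, and single markers differed. Fabp7 and Apoe of satellite glia and Col3a1 of fibroblasts were highest in WT culture 3 in both compartments. Kcnj10 was highest in WT culture 2 in both, and Col1a1 and Col1a2 in WT culture 1. Of 6 markers of lymphocytes and plasmacytoid dendritic cells, Cd79a had counts, at 0.202 to 1.05 CPM over the 12 libraries. The part of these cell types in the members' spread was not tested.

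The first comparison asked whether the members were higher in neurites than in soma. Members were on the neurite side in most cultures, and the result depended on whether the culture was taken into account. In the fit with 1 mean per group, edgeR's quasi-likelihood test with Benjamini-Hochberg adjustment called 0 of the 7 members in het cultures, where 0.544% of all tested genes were called higher in neurites. There 1 member had an unadjusted p under 0.05, as did 2301 of the 15990 tested genes. DESeq2 called 1 member there, and 488 genes in all. In WT cultures the edgeR test called 1 member, Ifit2, where 2.41% of genes were called higher. Ifit2 had a log2 fold change of 0.39 ± 0.0978 (SE) in WT cultures, adjusted p = 0.0445 by the edgeR test, and of 0.33 ± 0.0978 in het cultures, adjusted p = 0.144. Of 23 other fits, the WT call was kept in 11 and lost in 12, with an adjusted p between 0.00898 and 0.388. Among the edgeR fits that left out 1 library it was lost without WT neurite replicate 1 (adjusted p = 0.152) or 3 (0.0654), without WT soma replicate 1 (0.156) or 2 (0.18), and without any 1 het soma library (0.068 to 0.0717). It was also lost without replicate 1, 2 or 3 of all groups (adjusted p = 0.388, 0.156 and 0.112, edgeR), without both libraries of WT culture 3 (0.073) and with the WT groups alone (0.129).

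With each culture as a block, its neurite and soma libraries were compared with each other, and the SE of the members that varied most fell. These values rest on libraries of 1 genotype and number being 1 culture, which the labels do not spell out. In het cultures the correlations of deviations go against it for numbers 1 and 3: over genes of at least 10 CPM, r was -0.234 for neurites 3 with soma 3, but 0.258 for neurites 1 with soma 3 and 0.219 for neurites 3 with soma 1. In het cultures Ifit3 was then called higher in neurites, by 0.58 ± 0.107 on the log2 scale and adjusted p = 0.00579 (edgeR), where 2.55% of genes were called higher. Isg15 had 0.59 ± 0.166 there with adjusted p = 0.0511, and did not pass. In WT cultures 3 members were called higher, where 5.85% of genes were: Ifit3 by 0.82 ± 0.109 (adjusted p = 0.000275, edgeR), Ifit2 by 0.39 ± 0.104 (adjusted p = 0.0224) and Ifit1 by 0.40 ± 0.115 (adjusted p = 0.033). Of 23 alternatives to the fit without a block, only this 1 called Ifit3 in either genotype or Ifit1 in WT cultures. With the replicate number as a block across the genotypes, 0 members were called in het cultures and 1, Ifit2, in WT cultures. In that fit 668 and 1510 genes were called in all.

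Over both genotypes, with the 6 cultures as blocks, 4 of the 7 members were higher in neurites, where 11.7% of all tested genes were. This comparison was added after the other values were seen. Ifit3 was 1.62-fold higher, a log2 fold change of 0.70 ± 0.076 with adjusted p = 7.1e-06 in edgeR's quasi-likelihood test with Benjamini-Hochberg adjustment. Ifit2 rose by 0.36 ± 0.0684 (adjusted p = 0.000938), Ifit1 by 0.38 ± 0.0754 (adjusted p = 0.00121) and Isg15 by 0.54 ± 0.111 (adjusted p = 0.00168) on the log2 scale in the same edgeR fit. Usp18 had 0.29 ± 0.117 with adjusted p = 0.0879, Bst2 0.12 ± 0.0973 with adjusted p = 0.43 and Oasl2 0.06 ± 0.146 with adjusted p = 0.827, and these did not pass. With any 1 culture left out, 4 members were called, while 2290 of 16143 to 4035 of 16258 tested genes were called in either direction. Without the block 1 member and 1950 of 15990 genes were called. The doubt about het numbers 1 and 3 touches these values and the differences within het cultures.

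Within single cultures, 5 members, Ifit1, Ifit2, Ifit3, Isg15 and Usp18, were higher in neurites in 6 of 6 cultures, which 12.1% of all tested genes were. For Usp18 the difference was as small as 0.003 on the log2 scale, in het culture 2. Ifit3 had differences in log2 CPM, neurites minus soma, of 0.632, 0.614 and 0.493 in het cultures and 0.937, 0.735 and 0.779 in WT cultures. Isg15 had 0.579, 0.639 and 0.536 in het cultures and 0.688, 0.154 and 0.569 in WT cultures. Oasl2 ran from -0.824 in WT culture 2 to 0.466 in WT culture 1, and was higher in neurites in 4 of 6 cultures. The median log2 fold change of the 7 members was 0.359, against -0.0087 over all tested genes.

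**Figure D3:**
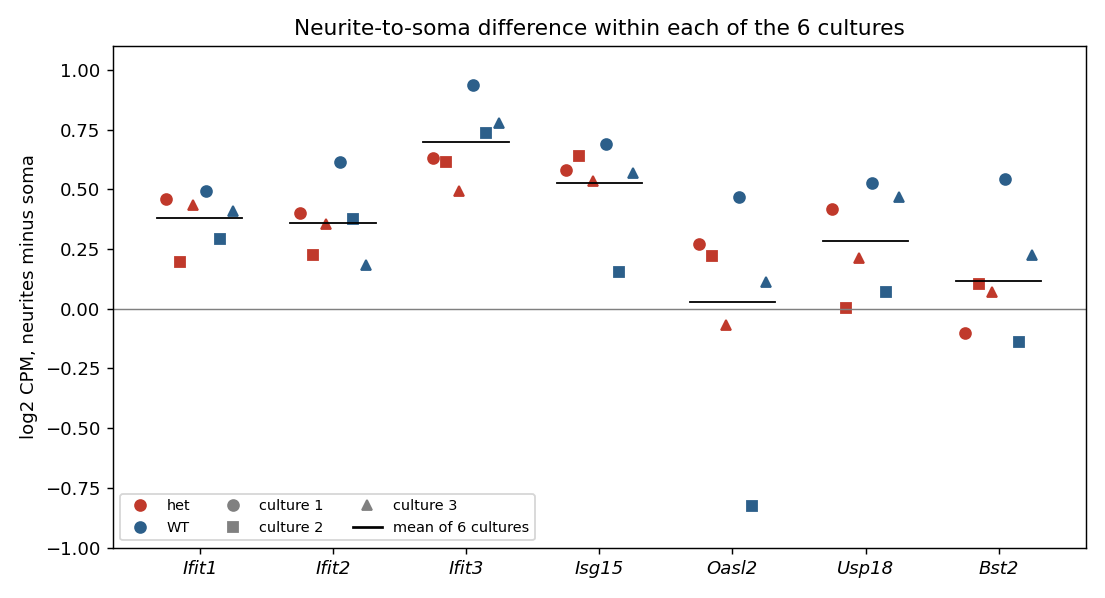
Difference in log2 CPM, neurites minus soma, of each tested member in each of the 6 cultures, with a line at the mean. All points of Ifit1, Ifit2, Ifit3, Isg15 and Usp18 lie above 0, while Oasl2 and Bst2 have points on both sides.

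The rest of the pathway was read from the same comparison over both genotypes, in which 11.7% of all tested genes were called higher in neurites and 9.37% lower. Of 13 tested nucleic acid sensors and adaptors, Ifih1, a sensor of long double-stranded RNA, rose by 0.39 ± 0.132 (adjusted p = 0.0403), and Tmem173, the adaptor STING, fell by 0.26 on the log2 scale (adjusted p = 0.0442) in the edgeR fit. Of 46 other interferon targets, 11 rose and 1 fell, and the median log2 fold change was 0.178. Parp14, a mono-ADP-ribosyltransferase, rose by 0.72 ± 0.0785 (adjusted p = 7.1e-06), Slfn9 by 0.84 ± 0.105 (adjusted p = 2.41e-05) and Ifit3b by 0.73 ± 0.104 (adjusted p = 8.01e-05), while Lgals3bp fell by 0.36 (adjusted p = 0.0462), all in edgeR. Of 9 regulators, Irf2 rose by 0.35 ± 0.0876 (adjusted p = 0.00676, edgeR). The counts of 1 of 13 sensors in each direction and 1 of 9 regulators are no higher than the shares of all genes. Of 22 genes of antigen presentation and the interferon gamma response, 5 rose and 0 fell, among them Gbp2, by 0.62 ± 0.105, B2m, by 0.35 ± 0.0736, and Gbp3, by 0.81 ± 0.223 (adjusted p = 0.000487, 0.002 and 0.0135, edgeR). With each of the 6 cultures left out in turn, the calls of Parp14, Slfn9, Ifit3b, Irf2, Gbp2 and B2m were kept in all 6 fits, those of Lgals3bp and Gbp3 in 4, and those of Ifih1 and Tmem173 in 1, with a highest adjusted p of 0.118 for Ifih1 (edgeR) without WT culture 1 and 0.168 for Tmem173 (edgeR) without het culture 1.

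In the fits of 1 genotype without the block, Parp14 was the listed target called in both, at 0.63 ± 0.134 in het cultures (adjusted p = 0.0484, edgeR) and 0.81 ± 0.134 in WT cultures (adjusted p = 0.00581, edgeR). Of 16 fits with libraries left out, 4 kept the call in het and 13 in WT. In the other pathway lists none passed in these fits. Of the genes named next, Stat2 had 5 to 34 and Irf5 1 to 23 counts per library, so their values rest on few counts. The genes with the smallest p in het cultures were Stat2 at -0.65 ± 0.404, Jak1 at 0.13 ± 0.0912, Tmem173 at -0.33 ± 0.158, Tlr3 at 0.59 ± 0.348, Irf2 at 0.34 ± 0.128, Irf1 at 0.66 ± 0.321, H2-D1 at -0.28 ± 0.112 and B2m at 0.28 ± 0.156, as log2 fold changes. Those in WT cultures were Stat2 at 0.88 ± 0.401, Jak1 at 0.18 ± 0.0912, Ifih1 at 0.56 ± 0.307, Tlr3 at 0.58 ± 0.338, Irf2 at 0.36 ± 0.129, Irf5 at -1.14 ± 0.606, B2m at 0.43 ± 0.156 and Gbp2 at 0.77 ± 0.276.

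Cell type markers moved between the compartments as well. In the comparison over both genotypes 6 of 9 tested macrophage markers and 11 of 12 sensory neuron markers were lower in neurites, and 5 of 7 Schwann cell markers, 3 of 6 satellite glia markers and 2 of 5 markers of proliferating cells were higher. Schwann cell markers summed to 502, 437 and 386 CPM in het neurites against 342, 363 and 376 CPM in het soma, and to 699, 614 and 721 CPM in WT neurites against 427, 511 and 536 CPM in WT soma. Their part in the members' neurite-to-soma differences was not tested.

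The second comparison asked whether the members differed between the genotypes. In neurites, 0 of the 7 members were called by edgeR's quasi-likelihood test, where 2.78% of all tested genes were called lower in het. Of the members 1, Ifit2, had an unadjusted p under 0.05, as did 3343 of the 15990 tested genes. Ifit2 averaged 111 ± 9.9 CPM in het neurites and 143 ± 9.69 CPM in WT neurites (SD, n = 3 each), a log2 fold change of -0.37 ± 0.0978 with adjusted p = 0.0505 in edgeR, just above the threshold of 0.05. Over 23 alternatives its adjusted p was between 0.017 and 0.368. It passed in 5 of them, among these limma voom (0.0498) and DESeq2 (0.02), and with the neurite groups alone it was 0.239 (edgeR). In soma Ifit2 averaged 88.2 ± 2.43 CPM in het cultures and 109 ± 10.2 CPM in WT cultures (SD, n = 3 each), a log2 fold change of -0.31 ± 0.0978 with adjusted p = 0.248 (edgeR), where 0% of all tested genes were called in either direction without a block. There 1 member had an unadjusted p under 0.05, as did 1464 of the tested genes, while DESeq2 called 315 genes. With the replicate number as a block across the genotypes, 520 genes were called in soma, 3.09% of all tested genes lower in het, and 0 members, with adjusted p = 0.0847 for Ifit2 (edgeR).

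Ifit2 was the member whose het libraries all lay below all WT libraries, in neurites, where 10.8% of all tested genes did so, and in soma, where 11.9% did. In the authors' deposited table, which has a row per transcript, the main Ifit2 transcript was at -0.361 on the log2 scale, het over WT, among neurites (false discovery rate 0.186) and at -0.299 among soma libraries (false discovery rate 0.0426). A second Ifit2 transcript, with 174 counts in neurites and 266 in soma, was at 0.487 among neurites (false discovery rate 0.729). Among soma libraries it was at -0.261 (false discovery rate 0.754).

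The other 6 members had no call between the genotypes, and their SE was large. In neurites their log2 fold changes, het over WT, ran from -0.52 ± 0.502 for Isg15 to 0.08 ± 0.398 for Oasl2, and in soma from -0.55 ± 0.512 for Isg15 to 0.19 ± 0.469 for Bst2. Usp18 had -0.34 ± 0.757 in neurites and -0.07 ± 0.764 in soma. Without both libraries of WT culture 3, the log2 fold changes of these 6 members were all positive, from 0.21 for Isg15 to 0.90 for Usp18 in neurites and from 0.087 for Isg15 to 0.999 for Usp18 in soma, and none passed the adjusted threshold (edgeR). This fit was added after the other values were seen. Leaving out the WT culture that was highest for most members raises het over WT by construction. The fit shows how far 1 culture moved these values and does not test their sign. In that fit 2 of the 7 members in neurites and 3 in soma had an unadjusted p under 0.05 (edgeR). Of 16156 tested genes, 2678 and 998 did. The median of the 7 members was -0.338 in neurites against -0.0131 over all genes, and -0.073 in soma against 0.0086 over all genes.

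**Figure D4:**
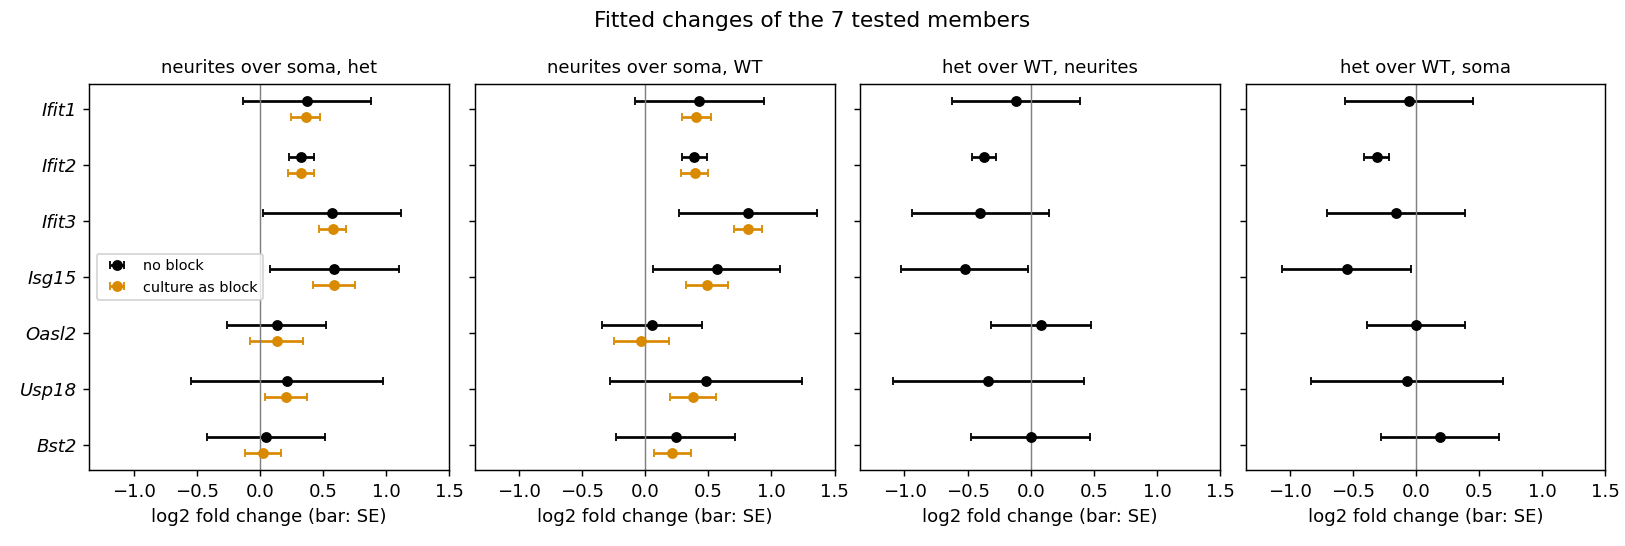
Log2 fold change with its SE for the 7 tested members in 4 comparisons, without a block in black and with the culture as a block in orange where that fit exists. The block shortens the bars of all members but Ifit2 in the neurite-to-soma comparisons, and in het over WT the bars of Ifit2 alone stay clear of 0 by more than 2 SE.

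Of the wider list of 46 targets, 2 were lower in het neurites, where 2.78% of all tested genes were called lower. Parp14 was lower by 0.71 on the log2 scale (adjusted p = 0.0215, edgeR). Eif2ak2, the double-stranded RNA kinase PKR, was lower by 0.44 (adjusted p = 0.0459, edgeR). Parp14 had 152, 117 and 113 CPM in het neurites against 214, 182 and 229 CPM in WT neurites. Each het library lay below each WT library, as for 10.8% of all tested genes. Of 16 fits with libraries left out, 10 kept the call of Parp14 and 3 that of Eif2ak2, and without replicate 3 of all groups both had adjusted p = 0.368 (edgeR). In the other pathway lists none passed in neurites. The 2 genes of each with the smallest p were Ifnar2 at -0.52 ± 0.157, Tyk2 at -0.32 ± 0.112, Ifih1 at -0.56 ± 0.308, Tlr3 at -0.50 ± 0.339, Socs3 at -0.30 ± 0.0976, Irf5 at 1.55 ± 0.591, Gbp5 at -1.54 ± 0.39 and Gbp2 at -1.06 ± 0.278. Their adjusted p ran from 0.051 for Gbp5 to 0.423 for Tlr3 (edgeR). Irf5 had 1, 5 and 5 counts in WT neurites, so its value rests on few counts. Markers of glia and of dividing cells were lower in het neurites: 3 of 7 Schwann cell markers, 3 of 6 satellite glia markers and 3 of 5 proliferation markers fell. Schwann cell markers summed to 386 to 502 CPM in het neurites against 614 to 721 CPM in WT neurites. Their part in the lower Parp14, Eif2ak2 and Ifit2 was not tested.

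In soma 0 genes of these lists were called without a block. With the replicate number as a block, 3 of the 46 targets were lower in het soma, where 3.09% of all tested genes were. On the log2 scale Parp14 was lower by 0.53 (adjusted p = 0.0192, edgeR), Ifitm2 by 0.39 (adjusted p = 0.0396, edgeR) and Slfn9 by 0.79 (adjusted p = 0.0471, edgeR). In the other pathway lists none passed. In that fit 3 of 7 Schwann cell markers, 2 of 6 satellite glia markers and 3 of 5 proliferation markers were lower as well, and their part in the 3 targets was not tested. Without the block the genes with the smallest p were Ifnar2 at -0.45 ± 0.156, Tyk2 at -0.19 ± 0.112, Mb21d1 at -0.82 ± 0.384, Tlr3 at -0.51 ± 0.347, Parp14 at -0.53 ± 0.134, Cxcl10 at -1.199 ± 0.423, Socs3 at -0.21 ± 0.0973, Irf1 at -0.63 ± 0.32, Gbp2 at -0.78 ± 0.279 and Gbp5 at -1.05 ± 0.392. The neurite comparison and the soma comparison of the genotypes use different libraries of the same cultures.

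The third comparison, the interaction, asked whether the neurite-to-soma change differed between het and WT cultures. By edgeR's quasi-likelihood test 0 members and 0% of all tested genes were called, with the block by culture and without it. Without the block, 0 members and 202 genes had an unadjusted p under 0.05. With the block, the difference, het minus WT, was -0.24 ± 0.152 for Ifit3 (unadjusted p = 0.138, edgeR), -0.04 ± 0.161 for Ifit1, -0.06 ± 0.146 for Ifit2, 0.09 ± 0.235 for Isg15, 0.16 ± 0.302 for Oasl2, -0.17 ± 0.246 for Usp18 and -0.19 ± 0.202 for Bst2. In the lists none passed, and the genes with the smallest p without the block were Stat2 at -1.54 ± 0.569, Irf9 at -0.34 ± 0.35, Ticam1 at -0.26 ± 0.234, Zbp1 at -0.73 ± 1.02, Oas3 at 0.92 ± 0.467, Rnf213 at -0.76 ± 0.395, Irf5 at 1.499 ± 0.784, Socs1 at 0.24 ± 0.293, Tap1 at -0.73 ± 0.429 and Tapbp at -0.32 ± 0.213. These p-values do not show that the genotypes had the same neurite-to-soma change. Stat2 had 5 to 34, Zbp1 2 to 39 and Irf5 1 to 23 counts per library, so their values rest on few counts.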

How the data were processed

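RNA was measured in neurites and soma of cultured mouse sensory ganglia, 3 libraries in each of 4 groups, by ribosomal RNA-depleted stranded sequencing, per the labels' protocols. The submitters' processing notes name CASAVA 1.8.2, edgeR and the mm10 (GRCm38) build. Which aligner and counter were run is not given in the sources used here. Per the file headers, the authors deposited raw counts per Ensembl transcript, with their own log2 fold changes and a p-value and false discovery rate for each transcript. Every transcript had at least 5 counts in at least 3 libraries of its table. A further 24 per-sample columns were not used, and 0.574% to 0.694% of counts had no gene name.

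For each gene name, the counts of its transcripts in both tables (31420 in all) were added up. edgeR 4.0.16 in R 4.3.3 applied filterByExpr, TMM scaling and its robust quasi-likelihood test, with 1 mean per group and Benjamini-Hochberg adjustment over all 15990 genes, with a threshold of 0.05. Levels are CPM on the TMM scale, and log2 CPM uses a prior count of 0.5. All tests were 2-sided. The fit was tested on simulated data in which 200 genes were changed in each neurite-to-soma contrast, and 171 were recovered in het and 170 in WT over 15748 genes, with 3 and 8 false calls. No gene was changed in the other contrasts. They had 0 false calls for het over WT in neurites, 1 in soma and 0 for the interaction. The planted changes were larger than the neurite-to-soma changes fitted for the members with all libraries. The simulated libraries were drawn without a culture effect. The share recovered is therefore no measure of the power for these members. Alternatives were DESeq2 1.42.0, limma voom 3.58.1, other scaling, no filter, fewer groups, left-out libraries and replicate blocks. Positions are from GENCODE M21 and promoters from RefSeq. The floor for a count of 0 covers counting error only, while SD and SE include the variation between libraries.

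Members and gene lists were chosen with earlier results of these data known. In every contrast the members are given. Of each pathway list, up to 3 called genes per direction with the smallest p are named, or else the 2 with the smallest p. For 1 listed gene the results are not reported here. Glial and other marker lists serve as checks.

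The labels give 3 biological repeats of cultures from 1 mouse each that yield both compartments. Neurites and soma of 1 genotype and number were therefore taken as 1 culture, though the labels do not spell this out. The deviations of such pairs from their group means correlated at 0.201, 0.234 and 0.0639 in het and at 0.257, 0.306 and 0.21 in WT over all tested genes. Over genes of at least 10 CPM they correlated at 0.206, 0.519 and -0.234 in het and at 0.587, 0.589 and 0.396 in WT, while het neurites 1 with soma 3 and het neurites 3 with soma 1 had 0.258 and 0.219. This goes against the pairing of het numbers 1 and 3. If the numbers did not mark a shared culture, the blocked values would not apply. Between the genotypes, libraries of 1 number correlated at 0.201, 0.252 and 0.149 in soma (0.41, 0.561 and 0.211 over genes of at least 10 CPM), each over the limit of 0.1 used for pairing, so the fit with the number as a block is given beside the soma comparison. In neurites 1 of the 3 pairs was below that limit.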

Additional observations from a re-analysis of the deposited data

How the results depend on the processing

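Limits and alternatives. With 3 cultures per genotype and members that vary by culture, single-library leave-outs decide many values. Genes called moved under replicate block (number shared across genotypes) to 668 in het neurites over soma, 1510 in WT, 1696 in het over WT in neurites and 520 in soma. Same-number libraries of the genotypes correlated at 0.117, 0.185 and -0.0305 in neurites (0.382, 0.49 and -0.129 over genes of at least 10 CPM), so not every pair passed 0.1 there, while in soma every library correlated best with its own number. In that fit Ifit2 was called in het over WT in neurites, 1 member, with adjusted p = 0.017 against 0.0505 without the block (edgeR). With the block within genotype, 671 and 1489 genes were called for het and WT neurites over soma, and members called were 1 and 3; Oasl2 in WT turned to -0.03. DESeq2's Wald test called 488, 1108, 1200 and 315 genes in these 4 contrasts, with 1 member in het neurites over soma and 1 in het over WT in neurites; limma voom called 1 member in the last. With the groups of a contrast alone, WT neurites over soma had 40 genes and 0 members, het over WT in neurites 0 genes and in soma 388, and the compartment's own table gave 0 and 388. Without the block, the comparison over both genotypes called 1950 genes, against 3366, and 1 member.

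Leaving out libraries, genes called ran from 0 to 191 (het neurites over soma), 0 to 1081 (WT neurites over soma), 0 to 1767 (het over WT, neurites) and 0 to 64 (het over WT, soma), and members called from 0 to 1 in WT neurites over soma and in het over WT in neurites. Some signs of het over WT were reversed: Bst2 in neurites was 0.011 with the replicate block, 0.018 with DESeq2 size factors, 0.026 with the groups or the table alone and 0.029 with DESeq2. In soma Ifit1 was 0.044 and 0.04, Ifit3 0.012 and 0.032, and Usp18 0.196 and 0.245 with the replicate block and limma voom, and Oasl2 0.011 with the replicate block and 0.003 with DESeq2. In limma voom the interaction of Isg15 was -0.01.

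Signs turned when libraries were left out, with log2 fold changes ranging as follows. For neurites over soma in het, the ranges were Oasl2 -0.113 to 0.344, Usp18 -0.095 to 0.522, Bst2 -0.377 to 0.457. For neurites over soma in WT, the ranges were Ifit1 -0.055 to 0.907, Isg15 -0.17 to 1.2, Oasl2 -0.401 to 0.386, Usp18 -0.76 to 1.55, Bst2 -0.211 to 0.67. For het over WT in neurites, the ranges were Ifit1 -0.452 to 0.371, Ifit3 -0.657 to 0.321, Isg15 -0.867 to 0.21, Oasl2 -0.363 to 0.536, Usp18 -0.717 to 0.903, Bst2 -0.43 to 0.452. For het over WT in soma, the ranges were Ifit1 -0.378 to 0.418, Ifit3 -0.452 to 0.578, Isg15 -0.826 to 0.087, Oasl2 -0.195 to 0.326, Usp18 -0.421 to 0.999, Bst2 -0.195 to 0.618. For interaction, het minus WT neurite-to-soma change, the ranges were Ifit1 -0.531 to 0.431, Ifit2 -0.177 to 0.01, Ifit3 -0.975 to 0.48, Isg15 -0.609 to 0.761, Oasl2 -0.248 to 0.538, Usp18 -1.334 to 0.976, Bst2 -0.619 to 0.263. For neurites over soma over both genotypes, the ranges were Oasl2 -0.016 to 0.193.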

Other observations

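Ifi202b, an interferon-inducible gene of the AIM2-like family on chromosome 1, was outside the lists and was chosen after its values were seen. It had 398, 1173 and 5 counts in het neurites against 0, 404 and 17 counts in WT neurites, and 828, 839 and 12 counts in het soma against 1, 691 and 12 counts in WT soma. A culture with many counts in neurites also had many in soma, and a culture with few in neurites had few in soma. The order of the cultures differed from that of the members: WT culture 3, the highest for most members, had 17 and 12 counts. Over 12 libraries the Pearson r of its deviations with the mean of the members was -0.447, given as a description. The cause was not tested.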
